A study of Mus musculus with 6 samples.

Results

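Complement is a cascade of blood and tissue proteins that tags cells, synapses and debris for uptake and recruits phagocytes. The classical route starts when C1q, built from the chains encoded by C1qa, C1qb and C1qc, binds its target. The classical and lectin routes then cleave C4 and C2, all routes meet at the cleavage of C3, and the alternative route amplifies C3 cleavage through factor B (Cfb) and properdin (Cfp). The fragments C3a and C5a act through the receptors C3ar1 and C5ar1. In the brain, microglia are a main source of C1q, and C1q and C3 are known for their part in synapse removal.

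These complement components and receptors were examined in microglia lacking Bhlhe41, a basic helix-loop-helix repressor that binds E-box DNA. The 9 genes C1qa, C1qb, C1qc, C3, C4b, C3ar1, C5ar1, Cfp and Cfb were chosen by name, and every non-control probe designed on one of their RefSeq transcripts was taken. They were represented by 13 of the 56605 probes of the array. C3, C4b, Cfp and Cfb had 2 probes each, and the other genes had 1 probe each. All 13 probes were a single spot per array and were well above background on all 6 arrays.

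Gene expression was measured on 1-colour mouse arrays in 6 samples. The 3 control samples (B41 HET) came from Bhlhe41 dTomato-Cre/+ mice, and the other 3 samples (B41 KO) from Bhlhe41 dTomato-Cre/dTomato-Cre mice. The allele carries a dTomato and Cre cassette in front of the Bhlhe41 start codon, which ends Bhlhe41 translation in every cell of the animal and not only in microglia. The controls carried 1 such allele too, so no wild-type sample and no sample free of dTomato or Cre entered the comparison. The mice were 3 months old and on a C57BL/6 background, and each sample was pooled from several mice according to the Methods, whereas the labels speak of 3 mice per genotype. Microglia were enriched on Percoll and sorted as CD45low, CD11b+ and Cx3cr1+ cells.

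Between 70.1% and 75.5% of the probes were well above background on each array, and no probe was saturated. The 12 microglia markers examined, among them P2ry12, Tmem119, Cx3cr1, Sall1, Csf1r, Fcrls, Olfml3, Gpr34, Siglech, Aif1 and Trem2, were well above background on all 6 arrays. Their mean log2 signal was 12.97 to 13.07 in B41 HET and 12.91 to 12.98 in B41 KO samples. Of these 12, Fcrls was called lower in B41 KO, by 0.76 on the log2 scale. Neither of the 2 Bhlhe41 probes was lower in B41 KO, so they gave no check of the genotype labels. The cassette ends in a polyA signal ahead of the Bhlhe41 coding sequence, and where the probes lie relative to it was not examined. The probe A_55_P2503365 read 7.95, 7.87 and 7.65 in B41 HET and 8.56, 7.84 and 8.21 in B41 KO, a log2 difference of 0.38 with an adjusted p of 0.330 (limma). The probe A_55_P2133001 read 7.86, 7.58 and 7.40 in B41 HET and 7.96, 7.90 and 7.96 in B41 KO, where the genotypes did not overlap, with a log2 difference of 0.33 and an adjusted p of 0.203 (limma).

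The RefSeq promoter table (GRCm38.p6, 250 bases before to 50 bases after the gene start) held 6 of the 9 genes, which were C1qb, C1qc, C3, C3ar1, C5ar1 and Cfp. The promoters of C1qb and C1qc are shown because these genes lie side by side in the genome, with C1qa next to C1qc, and the C3 promoter is shown because C3 was the member with both probes called. All are written 5′ to 3′ on the gene's own strand. Capitals mark GAGGAA, the core of the motif bound by the myeloid factor PU.1, or its reverse complement.
C1qb (chr4:136886151-136886450, minus strand): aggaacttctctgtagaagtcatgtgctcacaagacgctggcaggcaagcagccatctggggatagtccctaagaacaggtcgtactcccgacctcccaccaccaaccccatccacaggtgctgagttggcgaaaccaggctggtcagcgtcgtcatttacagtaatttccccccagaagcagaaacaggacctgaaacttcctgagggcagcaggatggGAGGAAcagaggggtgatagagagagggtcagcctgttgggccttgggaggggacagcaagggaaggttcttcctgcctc
C1qc (chr4:136892865-136893164, minus strand): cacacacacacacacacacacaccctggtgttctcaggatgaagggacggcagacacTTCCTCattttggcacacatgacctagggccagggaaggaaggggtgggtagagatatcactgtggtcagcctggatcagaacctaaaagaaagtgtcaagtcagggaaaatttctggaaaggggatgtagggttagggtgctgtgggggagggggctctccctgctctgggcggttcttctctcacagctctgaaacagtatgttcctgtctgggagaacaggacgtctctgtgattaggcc
C3 (chr17:57228087-57228386, minus strand): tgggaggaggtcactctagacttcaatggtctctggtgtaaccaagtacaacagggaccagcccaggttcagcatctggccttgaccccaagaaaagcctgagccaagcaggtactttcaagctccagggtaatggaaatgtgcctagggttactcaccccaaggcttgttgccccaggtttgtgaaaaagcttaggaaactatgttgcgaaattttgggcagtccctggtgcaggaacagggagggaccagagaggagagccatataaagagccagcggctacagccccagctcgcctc

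Both motifs were searched on both strands. The E-box CACGTG, the motif named for Bhlhe41, was in 0 of the 6 promoters and in 7.15% of all 32851 promoters of this length. GAGGAA was in 3 of the 6 promoters and in 28.3% of all. It began at position -30 relative to the gene start in C1qb, at -193 in C1qc, and at 6 and 22 in Cfp. The letters describe these windows alone.

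Of the 13 complement probes, 3 were called lower in B41 KO and 0 were called higher. A call needed an adjusted p of 0.05 or less in limma over all 56601 probes tested and an absolute log2 difference of 0.5 or more. Across the array 5.07% of the probes were called, 3.34% lower and 1.72% higher. The called probes were both C3 probes and 1 of the 2 Cfb probes. At an unadjusted limma p under 0.05 there were 5 lower probes and 1 higher probe among the 13, beside 12.1% and 11% of all probes. When each gene was represented by its brightest probe, C3 was the 1 gene called of 9, beside 5.45% of the 23462 named genes. The B41 HET and B41 KO samples did not overlap for 7 of the 13 probes, beside 29.7% of all probes, and by brightest probe for 3 of the 9 genes, beside 32.2% of all named genes. The median log2 difference was -0.14 over the 13 probes and 0.015 over all probes, and the median size of the difference, whatever its sign, was 0.18 and 0.19.

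**Figure D1:**
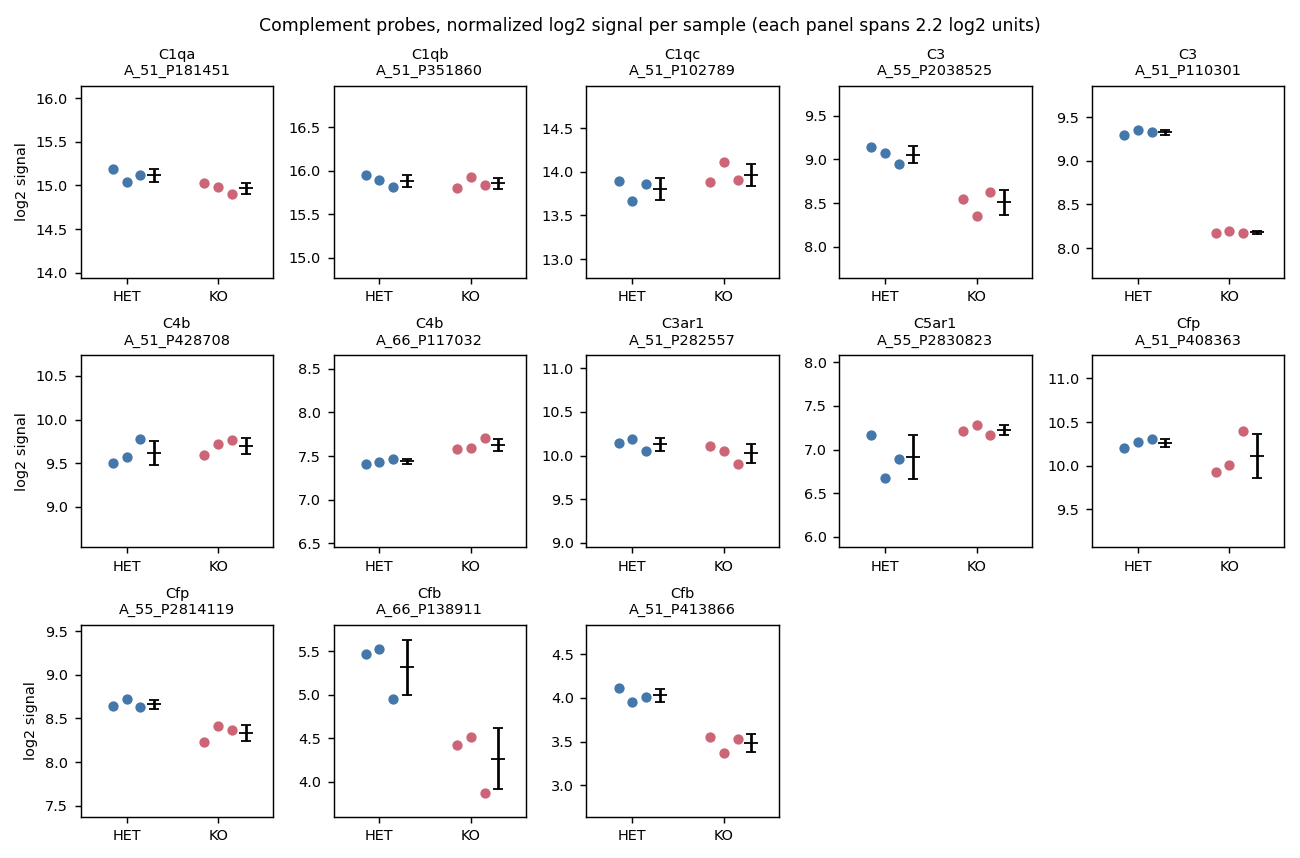
Normalised log2 signal (vertical axis, 2.2 log2 units in every panel) of the 13 complement probes in the 3 B41 HET and 3 B41 KO samples, with the mean and SD of each genotype beside the points. The C3 and Cfb panels show the B41 KO samples below all B41 HET samples, whereas the points of C1qb, C1qc and C3ar1 lie at overlapping heights.

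Transcripts of the C1q chains, the recognition part of the classical route, gave 0 calls among 3 probes and 0 probes at an unadjusted limma p under 0.05. The C1qa probe read 15.19, 15.04 and 15.12 log2 units in B41 HET and 15.02, 14.98 and 14.90 in B41 KO. The C1qb probe read 15.95, 15.89 and 15.81 in B41 HET and 15.80, 15.93 and 15.84 in B41 KO. The C1qc probe read 13.89, 13.66 and 13.86 in B41 HET and 13.88, 14.11 and 13.90 in B41 KO. The genotypes overlapped for C1qb and C1qc, and for C1qa the lowest B41 HET sample lay just above the highest B41 KO sample.

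The log2 difference of B41 KO against B41 HET was -0.15 for C1qa (95% interval -0.34 to 0.044, adjusted p = 0.331, limma). It was -0.028 for C1qb (-0.22 to 0.16, adjusted p = 0.871, limma), with a sign that turned under some processing alternatives, and 0.16 for C1qc (-0.10 to 0.42, adjusted p = 0.443, limma). The 3 intervals lay within the fold threshold of 0.5 on either side. The chains of this 1 complex, whose genes are neighbours, thus had differences of both signs, none of them past the test.

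C3, the component at which all routes meet, was lower in B41 KO on both of its probes. The probe A_51_P110301 read 9.30, 9.35 and 9.33 in B41 HET and 8.17, 8.20 and 8.17 in B41 KO. The probe A_55_P2038525 read 9.14, 9.07 and 8.95 in B41 HET and 8.54, 8.35 and 8.63 in B41 KO. In the same samples 8 of 12 neutrophil, 4 of 10 monocyte and 5 of 10 border macrophage markers, given further on, were called lower. On each C3 probe every B41 KO sample lay below every B41 HET sample, and on A_51_P110301 the gap between genotypes was many times the spread within either.

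The estimated C3 difference was larger on 1 probe than on the other. On A_51_P110301 the signal was 9.33 ± 0.027 (SD, n = 3) in B41 HET and 8.18 ± 0.018 in B41 KO, a log2 difference of -1.15 ± 0.063 (SE), or 2.21-fold lower (adjusted p = 0.00182, limma). On A_55_P2038525 it was 9.06 ± 0.099 (SD, n = 3) against 8.51 ± 0.15, a log2 difference of -0.55 ± 0.10 (SE), or 1.46-fold lower (adjusted p = 0.0409, limma). The log2 difference between both probes, A_55_P2038525 minus A_51_P110301, was -0.16, -0.28 and -0.38 in B41 HET and 0.38, 0.15 and 0.46 in B41 KO. Both probes are designed on the same RefSeq transcript, and these values did not overlap between genotypes (2-sided exact permutation p = 0.1, the smallest that 3 against 3 samples allow, and 0.267 after adjustment over the 4 genes with 2 probes). The inequality of the probes thus did not pass a test that 3 against 3 samples could not pass.

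The call of A_51_P110301 held whichever sample was left out, at log2 differences of -1.16 to -1.13 (adjusted p = 0.0136 to 0.0191, limma). The call of A_55_P2038525 was lost each time, with log2 differences of -0.61 to -0.47 (adjusted p = 0.0692 to 0.134, limma). The genes whose pattern over the 6 samples was most like that of A_55_P2038525 were Mctp1 (Pearson r = 0.999), Cog1 (0.998) and Abl2 (0.998), among 17206 named genes, of which 1264 had r over 0.9. These correlations are a description over 6 samples that share the split by genotype.

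**Figure D2:**
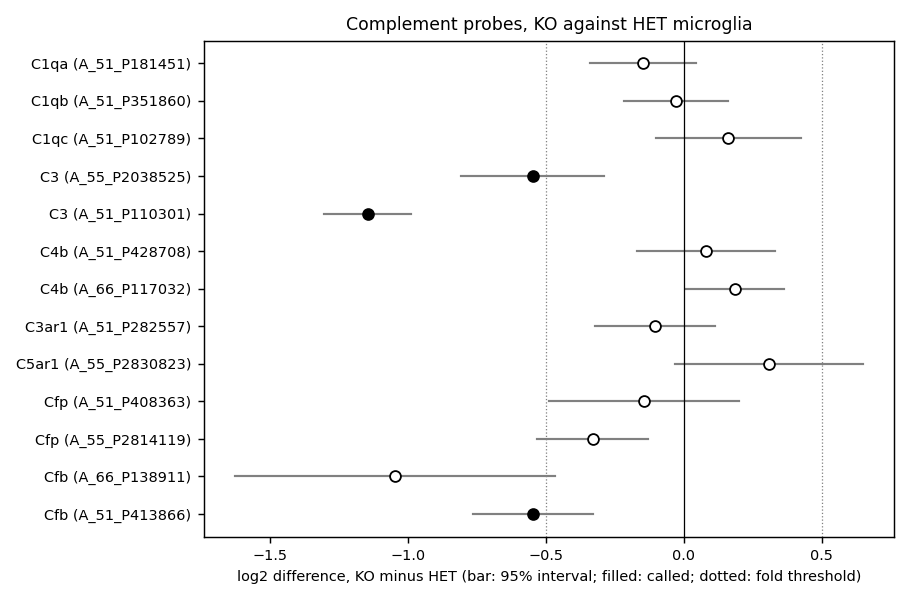
Log2 difference of B41 KO against B41 HET (horizontal axis) for each of the 13 complement probes, with the 95% interval as a bar, filled circles for called probes and dotted lines at the fold threshold of 0.5. The filled circles are both C3 probes at -1.15 and -0.55 and the Cfb probe A_51_P413866 at -0.55, and no probe lies beyond the threshold on the higher side.

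C4b encodes C4, which is cleaved after C1q or lectin binding and helps to assemble the C3 convertase. It was not called on either probe. The probe A_51_P428708 read 9.50, 9.57 and 9.77 in B41 HET and 9.60, 9.72 and 9.77 in B41 KO, and the genotypes overlapped (log2 difference 0.081, 95% interval -0.17 to 0.33, adjusted p = 0.696, limma). The probe A_66_P117032 read 7.41, 7.44 and 7.47 in B41 HET and 7.58, 7.59 and 7.70 in B41 KO. All B41 KO samples were above all B41 HET samples on the latter probe, by 0.18 log2 units in the mean, without passing the test (95% interval 0.0076 to 0.36, adjusted p = 0.201, limma). C4a is a near-identical copy of C4b, so these values are uncertain as to which copy they read. The probe designed on C4a had a log2 difference of -0.21 (adjusted p = 0.308, limma).

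Cfb encodes factor B, the protease of the alternative C3 convertase, and it read lower in B41 KO on both probes, of which 1 was called. The probe A_66_P138911 read 5.46, 5.53 and 4.95 in B41 HET and 4.42, 4.51 and 3.87 in B41 KO. The probe A_51_P413866 read 4.11, 3.96 and 4.01 in B41 HET and 3.55, 3.36 and 3.53 in B41 KO. On both probes every B41 KO sample was below every B41 HET sample, and on A_66_P138911 the third sample of each genotype was clearly under the other two.

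The probe with the larger Cfb difference was the one that missed the test. A_66_P138911 had a log2 difference of -1.05 ± 0.23 (SE, 95% interval -1.63 to -0.47, adjusted p = 0.0602, limma). A_51_P413866 was called, with a log2 difference of -0.55 ± 0.088 (SE, 95% interval -0.76 to -0.33, adjusted p = 0.0269, limma), or 1.46-fold lower. That call was lost whichever sample was left out (adjusted p = 0.0678 to 0.0876, limma). Cfb also moved with the background correction by the normexp method, to log2 differences under the fold threshold. These were -0.38 on A_66_P138911 (adjusted p = 0.0106, limma) and -0.079 on A_51_P413866 (adjusted p = 0.392, limma).

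Cfp encodes properdin, which stabilises the alternative convertase, and it was not called on either probe. The probe A_51_P408363 read 10.21, 10.27 and 10.30 in B41 HET and 9.93, 10.01 and 10.40 in B41 KO. Its genotypes overlapped, as the third B41 KO sample was above all B41 HET samples (log2 difference -0.14, 95% interval -0.49 to 0.20, adjusted p = 0.608, limma). The probe A_55_P2814119 read 8.64, 8.72 and 8.63 in B41 HET and 8.22, 8.41 and 8.36 in B41 KO. There the genotypes did not overlap, and the log2 difference was -0.33 ± 0.081 (SE, adjusted p = 0.0740, limma).

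The receptors for C3a and C5a, which draw and activate myeloid cells, gave 0 calls among 2 probes and 0 at an unadjusted limma p under 0.05. C3ar1 read 10.15, 10.19 and 10.05 in B41 HET and 10.12, 10.06 and 9.90 in B41 KO, a log2 difference of -0.10 (95% interval -0.32 to 0.11, adjusted p = 0.556, limma). C5ar1 read 7.17, 6.68 and 6.90 in B41 HET and 7.21, 7.28 and 7.17 in B41 KO. The B41 HET samples of C5ar1 were spread more widely than the B41 KO samples (SD 0.25 against 0.057), and the groups met at 7.17. Its log2 difference was 0.31, with a 95% interval of -0.031 to 0.65 that reaches past the fold threshold (adjusted p = 0.256, limma).

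The array position bears on these values, since the slide has rows, and 1 row held every B41 HET array together with the first B41 KO array, while the next held the remaining B41 KO arrays. A fit with the row as a block gives the difference within the first row, where B41 KO is 1 sample that is assumed to vary like the other samples. There the log2 difference of C3 was -1.16 on A_51_P110301 (adjusted p = 0.0303, limma) and -0.51 on A_55_P2038525 (adjusted p = 0.242, limma). For Cfb it was -0.90 on A_66_P138911 (adjusted p = 0.325, limma) and -0.48 on A_51_P413866 (adjusted p = 0.194, limma). These p-values rest on the spread borrowed from the other arrays, so they say little about the loss of a call, and the direction within the row was that over all samples.

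A further 52 complement genes were listed by role, and 35 of them were well above background on all 6 arrays and 11 on none. By the brightest probe, 1 was called higher and 3 lower in B41 KO, beside 1.44% and 4.01% of all named genes. The lower genes were the ficolins Fcna and Fcnb, lectin-route sensors, and Vtn, a plasma protein that blocks the terminal complex. The higher gene was Clu, which encodes clusterin, another fluid-phase inhibitor of that complex. The 15 initiation genes had 2 lower calls, the 19 regulators 1 call in each direction, and the 8 alternative and terminal genes and the 10 receptors 0 calls. At an unadjusted limma p under 0.05 there were 6 higher and 12 lower genes among the 52, beside 10.6% higher and 14.4% lower of all named genes. These were 1 higher and 4 lower initiation genes, 3 higher and 5 lower regulators, 2 higher and 3 lower receptors, and 0 of the alternative and terminal genes.

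Fcnb read 6.10, 5.79 and 5.84 in B41 HET and 3.91, 3.61 and 3.04 in B41 KO, where 2 of the 3 arrays were well above background. Its log2 difference was -2.39 ± 0.24 (SE, adjusted p = 0.00815, limma). Fcna read 5.58, 5.22 and 5.28 in B41 HET and 4.09, 4.30 and 4.003 in B41 KO, a log2 difference of -1.23 ± 0.13 (SE, adjusted p = 0.0103, limma). Both ficolins kept their call when any 1 sample was left out, but with normexp background correction Fcna fell under the fold threshold, at a log2 difference of -0.43, whereas Fcnb was called at -0.76.

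Vtn read 5.30, 4.83 and 4.96 in B41 HET and 3.90, 3.49 and 3.29 in B41 KO, a log2 difference of -1.47 ± 0.20 (SE, adjusted p = 0.0182, limma). Clu read 7.39, 7.38 and 7.34 in B41 HET and 7.93, 7.86 and 7.94 in B41 KO, a log2 difference of 0.54 ± 0.066 (SE, adjusted p = 0.0134, limma). With 1 sample left out, the call was kept in 1 of 6 cases for Vtn (without the first B41 KO sample) and in 2 of 6 for Clu (without the second or the third B41 KO sample), with log2 differences of -1.64 to -1.33 and 0.53 to 0.57. With normexp Vtn at -0.40 and Clu at 0.39 were also under the fold threshold. With the slide row as a block none of these 4 genes was called, at log2 differences of -2.003 for Fcnb (adjusted p = 0.0636, limma), -1.27 for Fcna (0.0898), -1.13 for Vtn (0.119) and 0.56 for Clu (0.107).

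**Figure D3:**
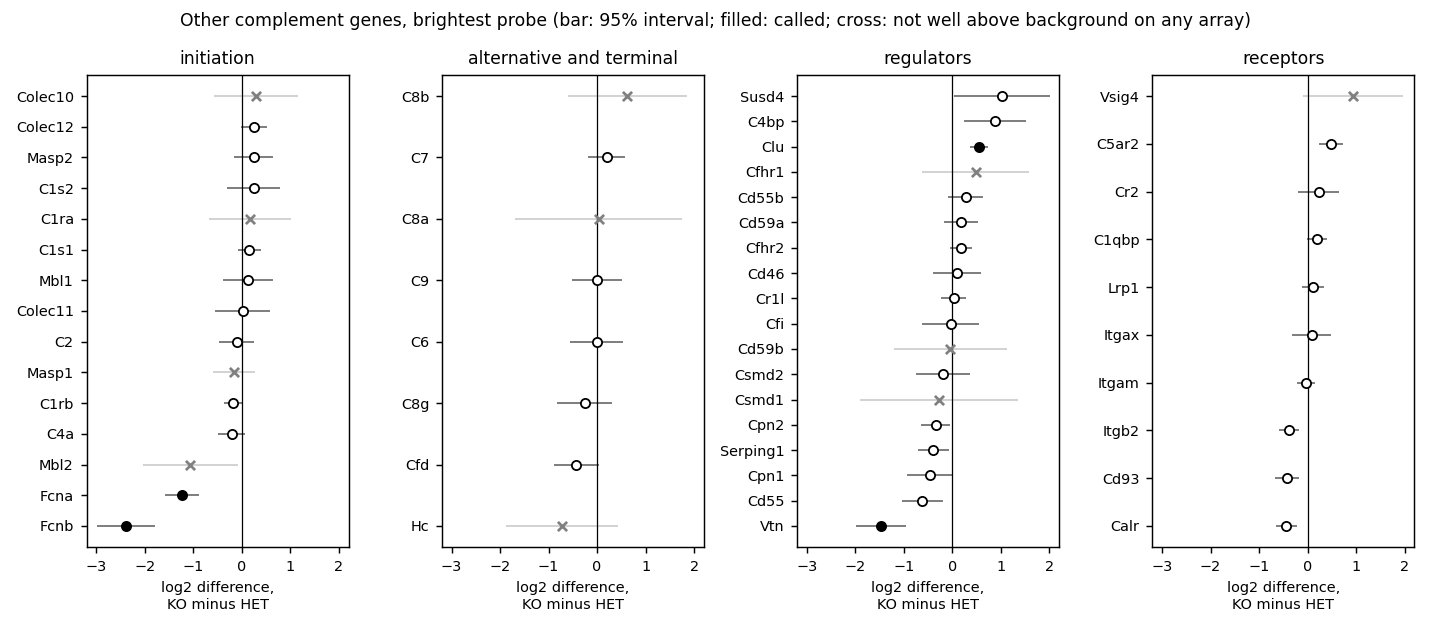
Log2 difference of B41 KO against B41 HET (horizontal axis) for the brightest probe of further complement genes in 4 role groups, with the 95% interval as a bar, filled circles for called genes and crosses for genes that no array measured well above background. Fcnb at -2.39, Vtn at -1.47, Fcna at -1.23 and Clu at 0.54 are the filled points.

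Among the other receptors, C5ar2, the alternative C5a receptor whose gene lies next to C5ar1, read 9.09, 8.94 and 8.90 in B41 HET and 9.54, 9.50 and 9.33 in B41 KO. It did not overlap and passed the p threshold, but its log2 difference of 0.48 ± 0.094 (SE, adjusted p = 0.0438, limma) was just under the fold threshold. It crossed that threshold in the table of values that the authors deposited, at 0.502 (adjusted p = 0.0408, limma). Itgb2, the beta chain of the integrin receptors for C3 fragments, had a log2 difference of -0.38 (adjusted p = 0.0403, limma), and Calr, a C1q-binding chaperone, -0.44 (adjusted p = 0.0358, limma), both under the fold threshold and chosen after their values were seen. Itgam, the alpha chain of complement receptor 3, differed by -0.027 (95% interval -0.19 to 0.14, adjusted p = 0.855, limma), and Itgax, that of complement receptor 4, by 0.080 (adjusted p = 0.811, limma). Cd93, once described as a C1q receptor, differed by -0.43 (adjusted p = 0.0558, limma).

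The remaining genes to be named by rule did not pass the test. Among the proteases, C2, the neighbour of Cfb, had a log2 difference of -0.10 (95% interval -0.44 to 0.23, adjusted p = 0.709, limma), C1s1 0.15 (adjusted p = 0.361, limma) and Cfd, factor D, -0.43 (adjusted p = 0.227, limma). Among the regulators, Serping1, the C1 inhibitor, had a log2 difference of -0.39 (adjusted p = 0.119, limma), Cd55 -0.62 (adjusted p = 0.0859, limma) and Cr1l, which encodes the rodent regulator Crry, 0.026 (95% interval -0.21 to 0.26, adjusted p = 0.909, limma). C1ra, Hc, which encodes C5, and Vsig4, a receptor for C3 fragments, were near background on all arrays, with no probe reading well above it.

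The levels of markers of other cell types also differed between the genotypes, and in bulk samples fewer cells of a type and less RNA per cell cannot be told apart. Of 12 neutrophil markers, all well above background on all arrays, 8 were called lower, and their mean log2 signal was 9.68 to 9.79 in B41 HET and 8.02 to 8.07 in B41 KO. The log2 difference was -3.17 for Ltf (adjusted p = 0.00104, limma), -3.13 for Ngp (0.000336) and -3.00 for Mmp9 (0.000282). Neutrophils hold stores of properdin and express receptors such as C5ar1, and the ficolin Fcnb is known from the granules of myeloid cells.

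Of 10 monocyte markers 4 were called lower, with a mean log2 signal of 6.62 to 6.65 in B41 HET and 5.48 to 5.75 in B41 KO. The log2 difference was -2.26 for Chil3 and -2.68 for Plac8, which 2 of the 3 B41 KO arrays measured well above background, and F10 was at least 1.61-fold lower, as no B41 KO array measured it well above background. Itga4 stayed near background throughout. Of 10 markers of border macrophages, which line vessels and meninges, 5 were called lower, with a mean log2 signal of 4.92 to 5.13 in B41 HET and 3.94 to 4.11 in B41 KO. With the slide row as a block 8 neutrophil, 2 monocyte and 1 border macrophage markers were called lower. In the same order these counts were 8, 3 and 2 with normexp, and 5, 1 and 0 with the replicate block. Among the 5 border macrophage markers the log2 difference was -1.44 for Cbr2, -1.10 for Ms4a7 and -1.92 for F13a1, which 1 of the 3 B41 KO arrays measured well above background. The number of border macrophage calls was 2 without the second B41 HET or the second B41 KO sample, 3 without the first or the third B41 HET sample, and 4 otherwise. That of monocyte calls was 2 without the first or the second B41 HET or the first B41 KO sample, and 3 to 4 otherwise, whereas 8 neutrophil calls were made whichever sample was left out.

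Of 10 endothelial markers Ly6c1 and Pecam1 were called lower, by 1.79 and 1.68 on the log2 scale, and the mean log2 signal of the list was 4.12 to 4.17 in B41 HET and 3.68 to 3.77 in B41 KO. Flt1, Cdh5, Tek and Itm2a stayed near background throughout. Among 9 B cell markers that could be matched, Cd79a was called, with a log2 difference of -0.99, the mean signal was 5.60 to 5.82 against 5.39 to 5.64, and Ms4a1 stayed near background throughout. The 10 oligodendrocyte markers had a mean signal of 6.33 to 6.42 against 6.19 to 6.28. Among 10 astrocyte markers the 1 call was Clu, which stands in both lists, and the mean signal of 7.04 to 7.14 overlapped that of B41 KO at 7.03 to 7.21.

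C3, Cfb, Fcna, Fcnb and Vtn thus read lower in samples where some of the neutrophil, monocyte and border macrophage markers were called lower. In the neutrophil and monocyte lists, 1 marker each read higher in every B41 KO than in every B41 HET sample, without a call. The part of neutrophils, monocytes and border macrophages in the complement values was not tested. These cells as a rule carry more CD45 than microglia, and the sort took CD45low cells. How many of them the samples held was not examined. The C1q probes, read in the same samples, differed by -0.15 to 0.16 log2 units.

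**Figure D4:**
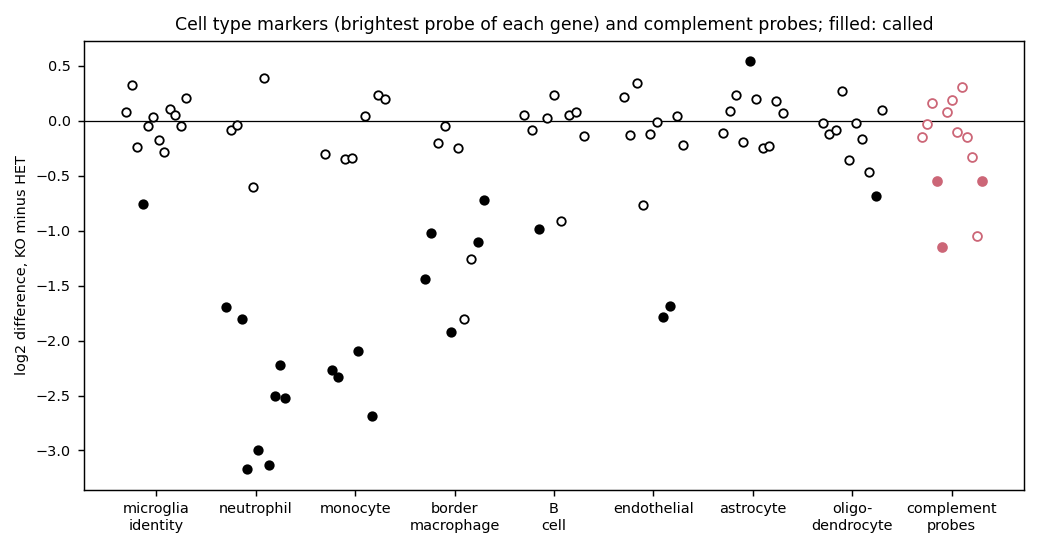
Log2 difference of B41 KO against B41 HET (vertical axis) for the brightest probe of each cell type marker, by list, and for the 13 complement probes at the right, with filled circles for called probes. Called neutrophil and monocyte markers lie between about -1.7 and -3.17, below the C3 and Cfb probes at -0.55 to -1.15. The called border macrophage markers, at -0.72 to -1.92, overlap the range of the C3 and Cfb probes. The microglia markers lie between -0.28 and 0.32 apart from Fcrls at -0.76.

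**Figure D5:**
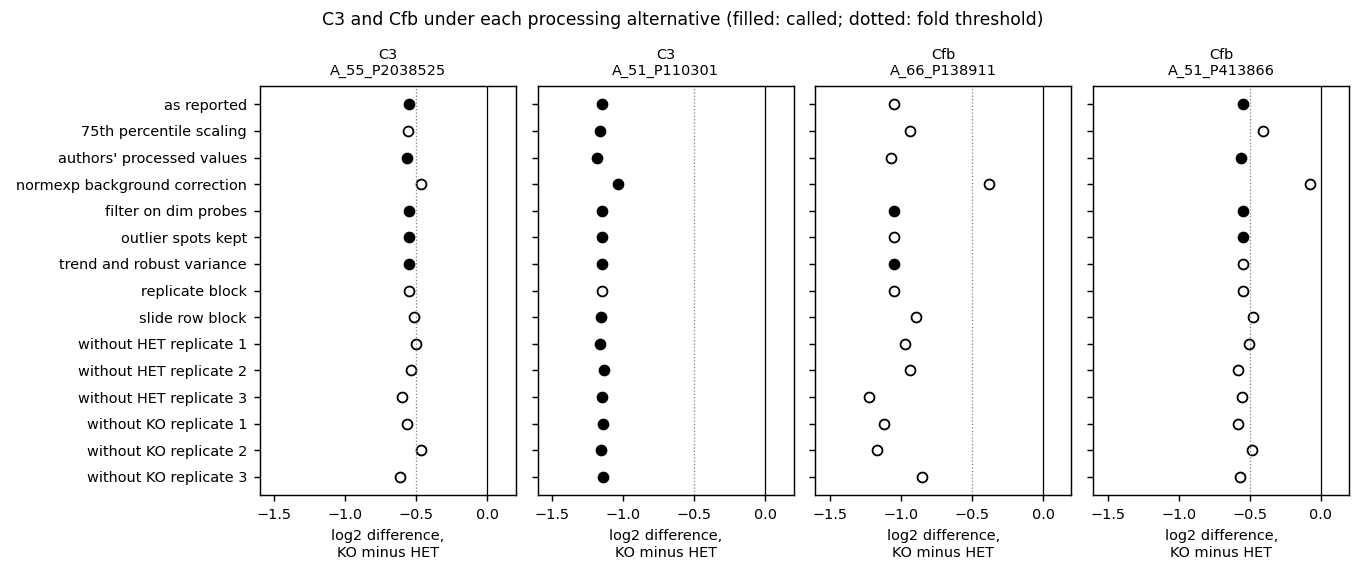
Log2 difference of B41 KO against B41 HET (horizontal axis) of the C3 and Cfb probes as reported and under 14 changes of processing or samples, with filled circles where the probe was called and a dotted line at the fold threshold of -0.5. A_51_P110301 stays at -1.18 to -1.04 and is called in every row but the replicate block, whereas the other C3 probe and the Cfb probes cross between called and not called.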

How the data were processed

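RNA of sorted microglia was labelled with Cy3 and hybridised to Agilent mouse arrays, 1 array per sample, 3 samples per genotype, all on 1 slide. The authors deposited scanner output made with Agilent Feature Extraction 11.5.1.1. Its processed intensity is background-subtracted and not normalised between arrays. The authors also deposited log2 values for all arrays in one table. The Methods name quantile normalisation, and the table itself states no scale. Each column had a median of 5.11 and ranked the probes as the arrays did (Spearman 1 when rounded), and it was used as an alternative.

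Controls were removed, as were the 95 to 136 spots of each array flagged as outliers. The log2 processed intensity was quantile normalised across arrays, and replicate spots of 1 probe were averaged. Probes with a value in at least 2 samples per genotype, 56601 of 56605, were tested with limma 3.58.1 (R 4.3.3, with the data.table package, version 1.17.8), with genotype as the only term and Benjamini-Hochberg adjustment over all probes. Quantile normalisation, limma and the call threshold follow the Methods. Probes were named by transcript accession, without versions, through a RefSeq gene table on GRCm38.p6, which named 33767 probes (59.7%). The array design names an older build, so no probe coordinates are given. The brightest probe, by mean log2 signal over the 6 samples, stands for a gene. Levels of different genes were not compared, as probes differ in affinity. For genes with 2 probes, the difference between the probes in each sample was compared between genotypes by an exact permutation test. The number of arrays limits the precision. The labels number the samples as biological replicates. Figures were drawn with matplotlib 3.10.9 (Python 3.11.15).

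The members and lists were chosen with earlier results of these data known. Named were all members, called genes of the further complement list and 15 of its genes fixed by name, up to 3 called genes with the largest difference per marker list, and the 3 genes most like a member called by its brightest probe. Itgb2, Calr and Fcrls fall outside that rule, and a few genes within the rule or lists are not reported here. Alternatives were 75th percentile scaling, the authors' table, normexp with an offset of 50, a dim-probe filter (3 or more arrays well above background), flagged spots retained, a trended robust variance, replicate and slide row blocks, other fold thresholds, the mean over a gene's probes, and each sample left out. On simulated data for B41 KO against B41 HET, with 200 of 56559 probes changed, 42% were called at a log2 change of 1 and 66% at 2, with 5 false calls and 0 in the wrong direction.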

Additional observations from a re-analysis of the deposited data

How the results depend on the processing

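The 3 lower complement probes became 1 with 75th percentile scaling, normexp, the slide row block or a log2 threshold of 1, and 1 to 1 with any sample left out. In each of these that 1 was the C3 probe A_51_P110301. With the replicate block 0 complement probes were called, and A_51_P110301 had an adjusted p of 0.0574 (limma). No complement probe was called higher under any alternative run. By brightest probe the 1 lower gene became 0 with 75th percentile scaling, normexp, either block, a threshold of 1 or any sample left out (0 to 0), and 2, C3 and Cfb, with the filter on dim probes, the trended variance or the mean over a gene's probes. The sign turned for C1qb with 75th percentile scaling (0.12), normexp (0.017) and without the first B41 HET sample (0.0032, in a range of -0.064 to 0.0032 over the samples left out), and for C4b A_51_P428708 with the slide row block (-0.018). The cause was not tested.

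Of the further complement genes, the 3 lower calls became 1 with normexp, 0 with either block, 5 with no fold threshold and 2 to 3 with a sample left out. The 1 higher call became 2 with the authors' table or no fold threshold, 0 with normexp, either block or a threshold of 1, and 0 to 1 with a sample left out. The 21 lower marker genes became 6 with the replicate block, 13 with the slide row block and 15 to 19 with a sample left out. The 1 higher marker became 0 with normexp, either block or a threshold of 1, and 0 to 1 with a sample left out.

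Across the array 1892 probes were lower and 975 higher. These became 1077 and 423 with normexp, 40 and 2 with the replicate block, 260 and 184 with the slide row block, 550 and 249 at a threshold of 1, and 550 to 1024 and 242 to 513 with a sample left out. With 75th percentile scaling they were 1534 and 1297, which raised the share of higher calls from 34.0% to 45.8%, as the median difference of all probes moved from 0.015 to 0.126. Relative to that median the C1qb difference there is close to 0. The median B41 HET log2 signal of the complement probes was 9.33, 9.12 in the authors' table and 9.42 with normexp. Same-numbered samples deviated together with correlations of 0.131, -0.00659 and 0.166, and 4 of the 6 samples correlated best with their own number. The labels do not say that the numbers pair the samples, so the replicate block was run as an alternative only.

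Depth has no meaning for arrays, and signal over background limits Cfb, Fcna, Fcnb and Vtn, whose differences shrank with normexp, to -0.43 for Fcna, -0.76 for Fcnb and -0.40 for Vtn.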
